A study of Mus musculus with 7 samples.

Results

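The clustered histone genes are the members of the Hist1, Hist2, Hist3 and Hist4 gene clusters, which encode the linker histone H1 and the core histones H2A, H2B, H3 and H4. They were chosen by symbol alone, as every entry whose symbol begins with Hist1h, Hist2h, Hist3h or Hist4h, which gave 69 of the 26558 named genes in the expression table. The family itself was put forward with mutant and wildtype values of these data in view, so its counts, medians and fold changes describe these libraries and carry no test of their own. By type the members were 6 H1, 19 H2A, 19 H2B, 12 H3 and 13 H4 genes. Of these 2, Hist1h2al (H2A) and Hist3h2bb-ps (H2B), are annotated as pseudogenes and were kept under the rule.

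The libraries came from kidney endothelial cells of 3-month-old male C57BL/6 mice, pulled out with magnetic beads carrying an antibody to Cd31 and lysed without culture. There were 4 mutant libraries (Hoxb7-Cre-GFP-VhlhloxP/loxP, where the Hoxb7-driven Cre deletes Vhlh in kidney tubule cells and not in the cells studied here) and 3 wildtype libraries (Hoxb7-Cre-GFP, which carry the same Cre-GFP transgene). Nothing in the labels ties a library to its own animal, so a p-value here covers the spread among these 7 libraries, part of which may be technical. RNA was selected by its poly(A) tail with oligo(dT) beads, and the level of each gene was given as FPKM (fragments counted per kilobase of a transcript and scaled to the size of its library), which allows levels to be compared per length between genes.

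Genes whose FPKM averaged 1 or more across the 7 libraries were tested on log2(FPKM + 1) with limma, and an adjusted p under 0.05 counted as a call. Of 13420 tested genes, 985 (7.34%) were called lower and 1176 (8.76%) higher in mutant cells. Relative depth ranged from 0.801 to 0.895 in mutant libraries and from 0.707 to 1 in wildtype libraries, and absolute depth is unknown. Vhl, whose deletion was directed at tubule cells, had 5.79, 5.57, 6.41 and 6.23 FPKM in mutant cells, against 6.78, 6.71 and 8.24 FPKM in wildtype cells (log2 fold change −0.23, limma adjusted p = 0.123). The endothelial marker Pecam1, which encodes Cd31, averaged 354 ± 33.6 FPKM in mutant cells and 247 ± 41.8 FPKM in wildtype cells (SD, n = 4 and 3). It was called higher in mutant cells (log2 fold change 0.53), a call lost in 10 of 19 alternatives. Cd31 was also the antigen used to pull the cells out, so these values alone do not establish the cell type.

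Clustered histone genes supply the bulk of the histones that package newly copied DNA, and dividing cells switch them on as they enter S phase. Their mRNAs are unusual: most end in a conserved stem-loop, bound by the stem-loop binding protein Slbp, in place of a poly(A) tail. Some of these genes can also yield polyadenylated mRNA from a signal further downstream, and this form is the one best known from cells that have stopped dividing. Selection with oligo(dT) retains polyadenylated mRNA, so the values below are not a measure of the whole histone mRNA pool. Replacement variants such as H3.3 and H2A.Z are encoded elsewhere, by genes that give ordinary polyadenylated mRNAs through the whole cell cycle.

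The stem-loop was searched for as GGNNNTTNTNANNNCC within 200 bases after the stop codon on the gene's own strand (GENCODE M21 annotation, GRCm38). It was found in 46 members, 21 to 58 bases past the stop codon (median 31). Among the other 21774 coding genes 80 (0.367%) held it, and 15 members had no annotated bases past the stop codon in which to look. The sites below, 1 or 2 from each type with a called member, show how nearly constant the element is, with the 16 bases of the stem-loop in capitals.
Hist1h1c: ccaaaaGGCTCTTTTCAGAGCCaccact
Hist2h2aa1: taaaaaGGCTCTTTTCAGAGCCacccac
Hist3h2a: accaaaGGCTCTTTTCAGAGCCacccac
Hist1h2bg: cccaaaGGCTCTTTTCAGAGCCacccat
Hist1h4i: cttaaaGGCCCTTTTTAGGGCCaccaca
The form shared by the first 4 stood in 26 members, 10 H2A, 8 H2B, 5 H3 and 3 H1 genes. The 12 H4 stem-loops found had other stems, beginning GGCCC or GGTCC, and 7 of them were the same 16 bases, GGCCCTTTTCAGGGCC.

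Summed over all 69 members, histone transcripts reached 175, 159, 223 and 223 FPKM in the 4 mutant libraries, against 310, 337 and 278 FPKM in the 3 wildtype libraries. Every mutant library was below every wildtype library. The means were 195 ± 33.2 FPKM in mutant cells and 308 ± 29.4 FPKM in wildtype cells (SD, n = 4 and 3), a ratio of 0.633. A pair of genes dominated these sums, Hist1h1c and Hist1h2bc. Without them the sums were 64.3, 64.8, 83.3 and 79.0 FPKM in mutant cells, against 158, 159 and 118 FPKM in wildtype cells, a ratio of 0.502.

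The types differed in level and in how far the groups lay apart. H4 genes summed to 9.26, 10.1, 9.66 and 9.79 FPKM in mutant cells, against 22.6, 23.7 and 20.9 FPKM in wildtype cells, a ratio of 0.433 with little spread inside either group. H2A genes summed to 31.4, 31.4, 28.6 and 36.0 FPKM in mutant cells, against 69.9, 67.7 and 47.7 FPKM in wildtype cells, a ratio of 0.516. In both types the groups did not overlap. H1 genes summed to 52.7, 44.5, 75.6 and 48.6 FPKM in mutant cells, against 83.8, 94.5 and 87.6 FPKM in wildtype cells, a ratio of 0.625 with no overlap. H3 genes summed to 2.04, 3.19, 3.61 and 4.59 FPKM in mutant cells, against 6.79, 6.08 and 3.84 FPKM in wildtype cells. H2B genes summed to 79.2, 70.2, 106 and 124 FPKM in mutant cells, against 126, 145 and 118 FPKM in wildtype cells. In these last types 1 mutant library lay above the lowest wildtype library, and the ratios were 0.603 for H3 and 0.731 for H2B. The H2B sum was mostly Hist1h2bc, 73.3% of it in mutant cells and 62.7% in wildtype cells, and without that gene the H2B ratio was 0.523.

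**Figure D1:**
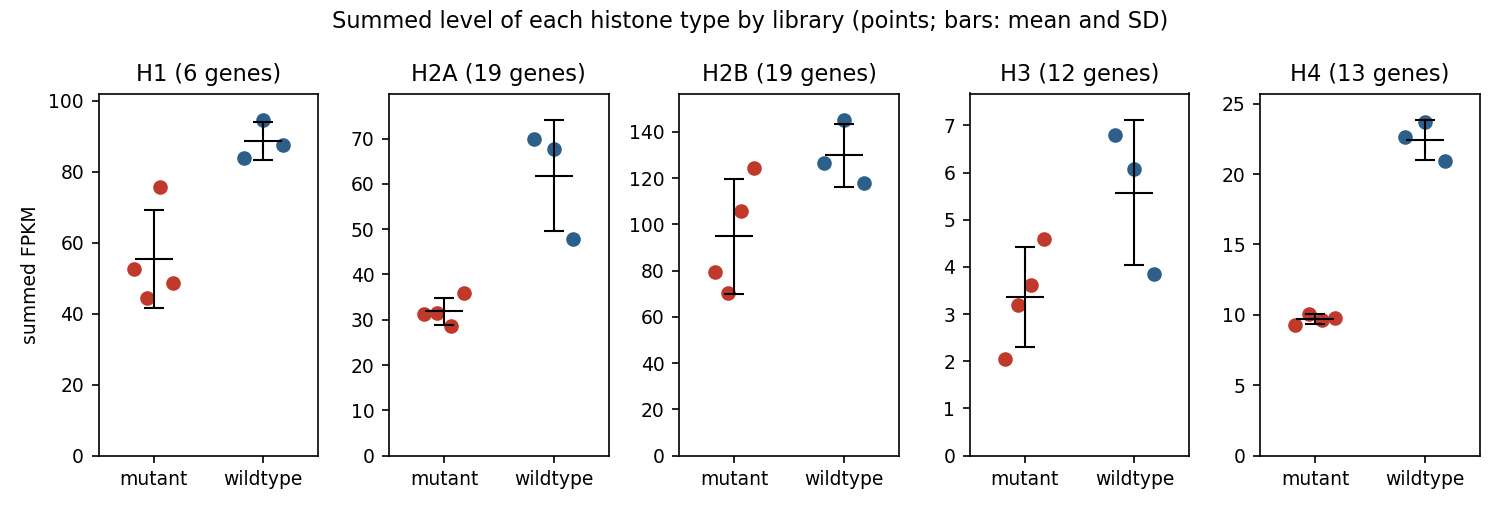
Summed FPKM of each histone type (vertical axis, each panel on its own scale from 0) in 4 mutant and 3 wildtype libraries, 1 point a library, with mean and SD bars. The H4 points sit between 9.26 and 10.1 in mutant cells and between 20.9 and 23.7 in wildtype cells, while the H2B and H3 points of the groups overlap.

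Of the 69 members, 20 passed the filter on low values and were tested, and 49 did not. Of the tested members 10 were called lower and 0 higher in mutant cells, beside 7.34% of all tested genes called lower (at an unadjusted p under 0.05, 13 were lower and 0 higher). The log2 fold change was below 0 in 20 of 20 tested members, beside 43.2% of all tested genes. In 12 of the 20 every mutant library was below every wildtype library, beside 12.5% of all tested genes. The median log2 fold change was −0.63, beside 0.04 over all tested genes. A member at a low level passed the filter more easily if either group was high, so these figures cover the 20 tested members and not the family.

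**Figure D2:**
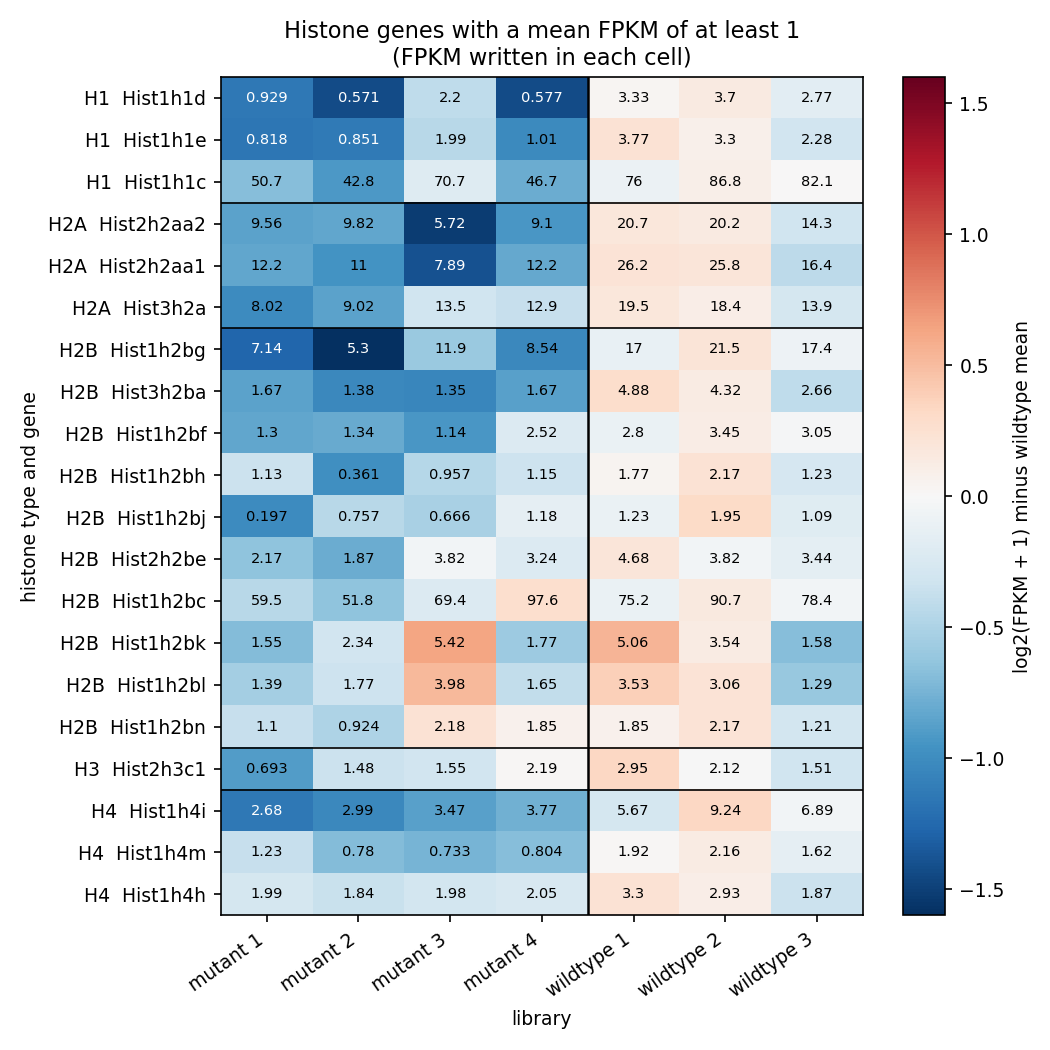
FPKM (number in each cell) of the 20 tested histone genes in 4 mutant libraries (left) and 3 wildtype libraries (right), coloured by log2(FPKM + 1) minus the wildtype mean of the gene. Blue cells, below the wildtype mean, fill most of the mutant columns, and the exceptions are mainly H2B genes in mutant 3 and mutant 4.

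H1 histones bind the linker DNA between nucleosomes, and 3 of the 6 H1 genes were tested and all 3 fell. Hist1h1c, which encodes the somatic subtype H1.2, lies at chr13:23738808-23740367 on the plus strand. It had 50.7, 42.8, 70.7 and 46.7 FPKM in mutant cells, against 76.0, 86.8 and 82.1 FPKM in wildtype cells (log2 fold change −0.64, SE 0.16). Mutant 3 was the highest of its group and came close to the lowest wildtype library. Hist1h1d, for subtype H1.3 (chr13:23553262-23560686, plus strand), had 0.929, 0.571, 2.20 and 0.577 FPKM in mutant cells, against 3.33, 3.70 and 2.77 FPKM in wildtype cells (−1.10, SE 0.25). Hist1h1e, for subtype H1.4 (chr13:23620629-23622558, minus strand), had 0.818, 0.851, 1.99 and 1.01 FPKM in mutant cells, against 3.77, 3.30 and 2.28 FPKM in wildtype cells (−0.94, SE 0.21). In both genes mutant 3 again stood above the other mutant libraries and below every wildtype library. Hist1h1c made up 95.3% of the H1 sum in mutant cells and 92.1% in wildtype cells, and the other 5 H1 genes together had a mutant to wildtype ratio of 0.372.

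H2A pairs with H2B in the nucleosome core. Of 19 H2A genes 3 were tested and 2 fell, Hist2h2aa1 and Hist2h2aa2, a pair of genes on chromosome 3 that read away from each other. Hist2h2aa1 (chr3:96245497-96246082, plus strand) had 12.2, 11.0, 7.89 and 12.2 FPKM in mutant cells, against 26.2, 25.8 and 16.4 FPKM in wildtype cells (log2 fold change −1.0, SE 0.20). Hist2h2aa2 (chr3:96239749-96240276, minus strand) had 9.56, 9.82, 5.72 and 9.10 FPKM in mutant cells, against 20.7, 20.2 and 14.3 FPKM in wildtype cells (−1.03, SE 0.20). Their coding sequences are identical, so the split of reads between them is uncertain. Here mutant 3 was the lowest library, unlike in the H1 genes, and wildtype 3 the lowest of its group. Hist3h2a (chr11:58954685-58956830, plus strand) had 8.02, 9.02, 13.5 and 12.9 FPKM in mutant cells, against 19.5, 18.4 and 13.9 FPKM in wildtype cells (−0.64, SE 0.20). It did not pass the test, although its groups did not overlap.

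H2B had 19 genes, 10 of them tested, 3 of which fell. Hist1h2bg (chr13:23571396-23572013, plus strand) showed the lowest log2 fold change among the 20 tested members on the log2(FPKM + 1) scale, with 7.14, 5.30, 11.9 and 8.54 FPKM in mutant cells, against 17.0, 21.5 and 17.4 FPKM in wildtype cells (log2 fold change −1.13, SE 0.22). Hist3h2ba (chr11:58948920-58949533, plus strand) had 1.67, 1.38, 1.35 and 1.67 FPKM in mutant cells, against 4.88, 4.32 and 2.66 FPKM in wildtype cells (−0.95, SE 0.16). Hist1h2bf (chr13:23573736-23574196, minus strand) had 1.30, 1.34, 1.14 and 2.52 FPKM in mutant cells, against 2.80, 3.45 and 3.05 FPKM in wildtype cells (−0.70, SE 0.18). In these 3 genes the groups did not overlap. Hist1h2bc (chr13:23684199-23692908, plus strand), the highest gene of the family, had 59.5, 51.8, 69.4 and 97.6 FPKM in mutant cells, against 75.2, 90.7 and 78.4 FPKM in wildtype cells (−0.26, SE 0.20). Its mutant 4 library was the highest of all 7, and the gene did not pass the test.

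The other 6 tested H2B genes did not pass the test either. Hist2h2be (chr3:96221119-96223738, plus strand) had 2.17, 1.87, 3.82 and 3.24 FPKM in mutant cells, against 4.68, 3.82 and 3.44 FPKM in wildtype cells (log2 fold change −0.42, SE 0.19). Hist1h2bk had 1.55, 2.34, 5.42 and 1.77 FPKM in mutant cells, against 5.06, 3.54 and 1.58 FPKM in wildtype cells (−0.24, SE 0.38). Hist1h2bl had 1.39, 1.77, 3.98 and 1.65 FPKM in mutant cells, against 3.53, 3.06 and 1.29 FPKM in wildtype cells (−0.19, SE 0.31). The last 2 followed each other across libraries, high in mutant 3 and low in wildtype 3, and their fold changes were 0.034 and 0.0038 without wildtype 1. Their coding sequences are 97.9 and 98.4% identical to that of Hist1h2bc, so how their reads were placed is uncertain. Hist1h2bn (−0.14), Hist1h2bh (−0.53) and Hist1h2bj (−0.53) stood between 0.197 and 2.18 FPKM in mutant cells and between 1.09 and 2.17 FPKM in wildtype cells, and of these Hist1h2bh alone had groups that did not overlap.

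H3 and H4 form the tetramer at the centre of the nucleosome. Of 12 H3 genes 1 was tested, Hist2h3c1 (chr3:96246685-96248509, plus strand), which encodes H3.2. It had 0.693, 1.48, 1.55 and 2.19 FPKM in mutant cells, against 2.95, 2.12 and 1.51 FPKM in wildtype cells (log2 fold change −0.38, SE 0.23), with overlapping groups and no call. Of 13 H4 genes 3 were tested and 2 fell. Hist1h4i (chr13:22040636-22041362, minus strand) had 2.68, 2.99, 3.47 and 3.77 FPKM in mutant cells, against 5.67, 9.24 and 6.89 FPKM in wildtype cells (−0.95, SE 0.16). Hist1h4m (chr13:21811746-21812147, plus strand) had 1.23, 0.780, 0.733 and 0.804 FPKM in mutant cells, against 1.92, 2.16 and 1.62 FPKM in wildtype cells (−0.62, SE 0.13). In both genes the groups did not overlap. Hist1h4m averaged 0.887 FPKM in mutant cells and 1.90 FPKM in wildtype cells, so it passed the filter through its wildtype values. The coding sequence of Hist1h4m is identical to that of Hist1h4n, which was not tested, so the split of reads between them is uncertain. Hist1h4h (chr13:23531050-23531519, plus strand) had 1.99, 1.84, 1.98 and 2.05 FPKM in mutant cells, against 3.30, 2.93 and 1.87 FPKM in wildtype cells (−0.30, SE 0.14). Its wildtype 3 library lay among the mutant ones, and it was not called.

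**Figure D3:**
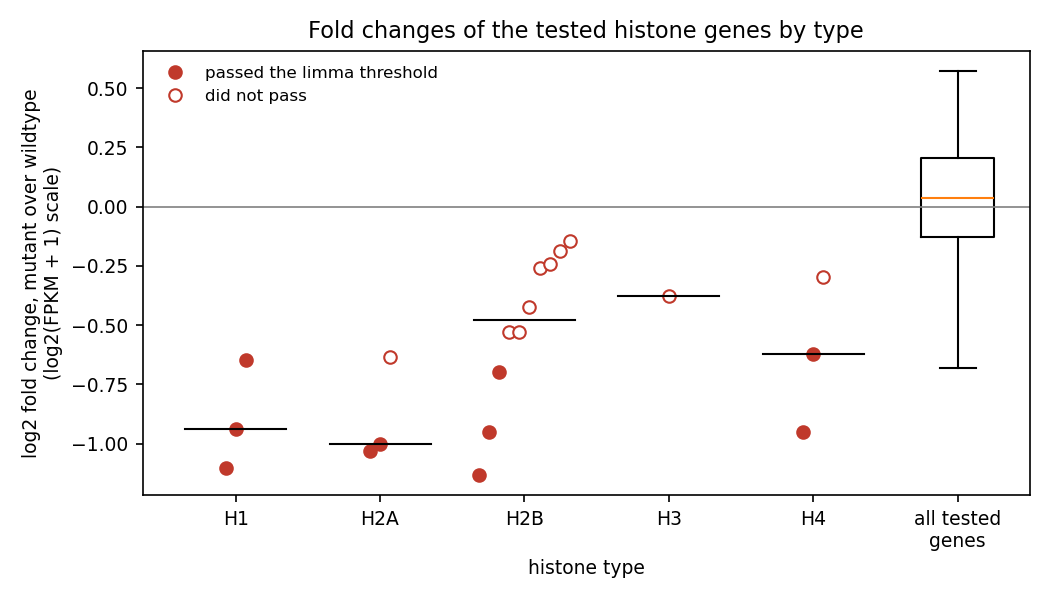
Log2 fold change, mutant over wildtype, of the 20 tested histone genes by type (points, filled where the limma threshold was passed; lines, medians), beside all 13420 tested genes (box, middle 50%; whiskers, 5th to 95th percentile). On this log2(FPKM + 1) scale type medians run from −1.0 in H2A to −0.38 in H3, where a single gene was tested. Every point lies below 0.

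The types spread unevenly around these values. The median log2 fold change over tested genes was −1.0 in H2A, −0.94 in H1, −0.62 in H4, −0.48 in H2B and −0.38 in H3. Within H2B the fold changes ran from −1.13 to −0.14, the widest range of any type. The order of the type medians depended on the amount added to FPKM before the logarithm. With 0.5 in place of 1 the H1 median was −1.15 and the H2A median −1.03. With 0.1 they were −1.40 and −1.06, beside −1.03 in H4, −0.74 in H2B and −0.59 in H3. Differences between types were not tested, since members of a type share sequence and lie in the same libraries.

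The 49 members below the filter had mean levels of 0.00161 FPKM (Hist1h2aa) to 0.976 FPKM (Hist1h4c), median 0.198. Their mutant mean was the lower one in 44 and the higher one in 5, beside a lower one in 45% of the 8160 genes listed above 0 and below the filter. In 16 of the 49 every mutant library was below every wildtype library and in 0 above, beside 5.09% below and 6.45% above among those 8160 genes. These low members together had 8.60, 10.4, 12.7 and 10.8 FPKM in mutant cells, against 28.3, 25.5 and 23.1 FPKM in wildtype cells, a ratio of 0.415. The 5 with the higher mutant mean were all close to 0. Hist1h1a, a linker histone subtype, averaged 0.123 FPKM in mutant cells and 0.121 FPKM in wildtype cells. Hist1h2an averaged 0.132 FPKM in mutant cells and 0.126 FPKM in wildtype cells, and Hist1h3f averaged 0.103 FPKM in mutant cells and 0.0787 FPKM in wildtype cells. Hist1h2ak averaged 0.0703 FPKM in mutant cells and 0.00563 FPKM in wildtype cells, and Hist1h2aa averaged 0.00282 FPKM in mutant cells and was listed at 0 in all 3 wildtype libraries. Altogether 17 members were listed at 0 in at least 1 library and 0 in all 7. No test was made at these levels, and most H2A, H3 and H4 genes stand here, 16, 11 and 10 of them.

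For the tested members the mutant libraries were not alike. Mutant 1 and mutant 2 were each below all 3 wildtype libraries for 18 of the 20 tested members, mutant 3 for 14 and mutant 4 for 13. The same counts were not made over all tested genes, so how far these differences belong to the histone genes was not tested. The median log2 difference from the wildtype mean was −0.83 in mutant 1, −0.82 in mutant 2, −0.43 in mutant 3 and −0.49 in mutant 4. Mutant 3 was the highest mutant library for 9 members and also the lowest for 5, so that it did not simply stand above the rest. A fit of mutant 1 and mutant 2 alone against wildtype was added after these values were seen. In it 13 of 23 tested members were called lower, beside 8.81% of all genes tested in that fit. Of the 13, 9 were among the 10 called with all libraries. It left out mutant 3 and mutant 4, where the differences were smaller, so its count is a description and no further support.

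The calls rested on few libraries and on which of them were used. Without wildtype 1, 4 members were called lower, beside 5.38% of all genes tested in that fit. Without wildtype 2, 2 members were, Hist1h4i and Hist3h2ba, beside 3.88%. The calls of these 2 held in each of the 18 alternatives in which each was tested. The calls of Hist2h2aa2 and Hist1h2bg were lost without wildtype 2, and those of Hist2h2aa1 and Hist1h4m without wildtype 1 or wildtype 2. The calls of Hist1h1e and Hist1h1d were lost without mutant 1, mutant 4, wildtype 1 or wildtype 2, and that of Hist1h1d also without wildtype 3. The call of Hist1h2bf was lost without any 1 library other than mutant 4, and that of Hist1h1c without any 1 library other than mutant 3.

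Shared sequence limits how far single members can be told apart. All 13 H4 genes encode the same protein of 103 residues, with coding sequences at least 85.3% identical between any pair. Of the 12 H3 genes 7 share 1 protein, of the 18 coding H2A genes 9, and of the 18 coding H2B genes 4. The H1 genes all differ, with coding sequences 62.6 to 83.9% identical. Among tested H2B genes, Hist1h2bg, Hist1h2bf, Hist1h2bk, Hist1h2bl and Hist1h2bj have coding sequences 97.9 to 99.0% identical to that of Hist1h2bc, the highest member. The split of reads among these H2B genes is therefore uncertain. Proteins were read from the longest annotated coding transcript. For Hist2h3c1 that held a coding sequence of 546 bases, against 411 in Hist2h3c2, so it was not counted among the 7. Hist1h2bq and Hist1h2br, with identical coding sequences, had values within 1% of each other in 6 of 7 libraries, and Hist1h2ad and Hist1h2ai likewise in 6. The sources used here do not say how reads that match several members were placed, or whether counting used strand. Of the 69 members 25 overlap another gene. Among the tested ones these were Hist1h1e, which shares 496 bases with Hist1h2be on the same strand, and Hist3h2a, which lies inside Trim17. Hist2h2aa1 shares 529 bases and Hist2h3c1 1825 bases with Gm20634 on the same strand. Hist2h2aa1 and Hist2h2aa2 also overlap antisense genes. The values of these members may hold reads of the overlapping genes as well. A read moved between members of a type stays in that type, but its weight in FPKM depends on the length of the member. Type sums can therefore shift with how reads were placed. Reads shared with such overlapping genes would change them too.

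The annotated transcript ends were compared with the levels, since the libraries were selected for poly(A) tails. The signal letters AATAAA or ATTAAA were searched for in the last 50 bases of every annotated transcript of a gene. At least 1 transcript held them in 17 of 69 members, beside 81% of the other coding genes, searched the same way. Members with these letters had a median level of 0.786 FPKM and those without 0.228 FPKM. Among members with the letters 7 were tested and 3 called lower, with a median log2 fold change of −0.64. Among members without them 13 were tested and 7 called lower, with a median of −0.62. The members with and without the letters had nearly the same median log2 fold change. Those without include the 15 members with no annotated bases past the stop codon in which to look, among them the tested Hist1h2bl and Hist1h2bn. For these a missing annotation and a missing signal cannot be told apart, which limits the comparison of levels as well as that of fold changes. Levels followed transcript length in the same loose way: 18 members with an annotated transcript of at least 1000 bases had a median of 0.936 FPKM, and the 51 shorter ones 0.214 FPKM. Hist1h1c is annotated over 1560 bases, with its stem-loop 840 bases before the end, and Hist1h2bc over 1156 bases with no match to the stem-loop pattern within 200 bases of its stop codon.

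**Figure D4:**
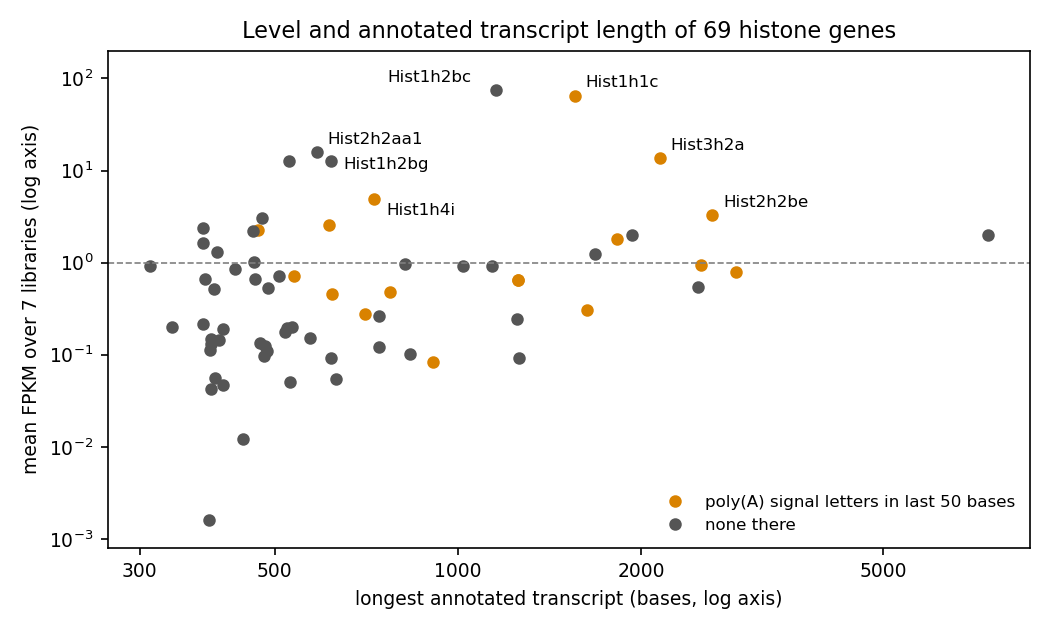
Mean FPKM over 7 libraries (log axis) against the length of the longest annotated transcript (log axis, bases) for 69 histone genes. Colour shows whether poly(A) signal letters stand in the last 50 bases of any annotated transcript of the gene. The dashed line marks the filter at a mean FPKM of 1, and the highest members, Hist1h2bc and Hist1h1c, have annotated transcripts of more than 1000 bases.

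The clusters lie on different chromosomes, and the lower mutant values were present in each. Hist1, on chromosome 13, holds 55 members, of which 14 were tested and 7 called lower (median log2 fold change −0.58), with a mutant to wildtype ratio of summed FPKM of 0.670. Hist2, on chromosome 3, holds 10, of which 4 were tested and 2 called lower (−0.71, ratio 0.495). Hist3, on chromosome 11, holds 3, of which 2 were tested and 1 called lower (−0.79, ratio 0.572). Hist4 is the single gene Hist4h4 on chromosome 6, not tested, with 0.473, 0.479, 0.526 and 0.603 FPKM in mutant cells, against 0.923, 1.44 and 1.05 FPKM in wildtype cells. The Hist1 span, chr13:21715763-23934851, holds 54 of the 55 Hist1 members. The pseudogene Hist1h2al lies outside it, at chr13:51202727-51203065. Within the span 5 other genes were tested, and their median log2 fold change was −0.03. Of these Hfe, the hereditary haemochromatosis gene, fell (log2 fold change −0.40, limma adjusted p = 0.0221), a call that was lost without any 1 of 5 libraries, mutant 1, mutant 2 and each wildtype library. Abt1 (0.06), Slc17a1 (0.18), Slc17a3 (−0.30) and Zfp322a (−0.03) were not called.

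Promoters were read from RefSeq, 250 bases before to 50 after the start (GRCm38.p6), for the 61 members with a promoter sequence there. The 3 below belong to the called members at the highest level in H2B, H2A and H4, so that the motif content can be seen letter by letter. Capitals mark ATTTGCAT (the octamer bound by Oct1, a known activator of H2B genes), CCAAT and TATAAA on either strand.
Hist1h2bg, chr13:23571150-23571449, plus strand: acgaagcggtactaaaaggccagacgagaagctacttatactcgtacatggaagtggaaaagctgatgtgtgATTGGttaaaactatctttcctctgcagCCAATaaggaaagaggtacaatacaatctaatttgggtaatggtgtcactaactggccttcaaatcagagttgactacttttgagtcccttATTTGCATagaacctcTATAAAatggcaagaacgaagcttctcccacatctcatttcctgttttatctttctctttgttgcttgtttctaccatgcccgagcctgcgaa
Hist2h2aa1, chr3:96245247-96245546, plus strand: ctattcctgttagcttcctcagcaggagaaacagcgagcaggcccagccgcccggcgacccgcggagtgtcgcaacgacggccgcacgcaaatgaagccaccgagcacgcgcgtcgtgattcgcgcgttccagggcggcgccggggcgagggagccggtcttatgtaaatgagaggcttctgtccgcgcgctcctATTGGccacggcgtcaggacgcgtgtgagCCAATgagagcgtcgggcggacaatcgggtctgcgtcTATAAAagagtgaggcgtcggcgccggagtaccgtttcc
Hist1h4i, chr13:22041313-22041612, minus strand: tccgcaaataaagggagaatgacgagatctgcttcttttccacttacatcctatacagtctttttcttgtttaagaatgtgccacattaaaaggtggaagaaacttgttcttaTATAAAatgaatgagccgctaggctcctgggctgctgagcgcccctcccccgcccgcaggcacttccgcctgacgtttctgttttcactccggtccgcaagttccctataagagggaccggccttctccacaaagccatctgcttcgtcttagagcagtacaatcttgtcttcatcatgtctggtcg
Counts are of genes, and a gene counted if any of its promoters held the letters. The octamer stood in 14 of 61 members (23.0%), beside 1.92% of 26964 other genes. These were 7 of 17 H2A and 7 of 16 H2B members, and none of the H1, H3 and H4 members. CCAAT stood in 52 of 61 (85.2%) beside 41.0% of the others, in every H1, H2A, H2B and H3 member and in 3 of 12 H4 members. TATAAA stood in 35 of 61 (57.4%) beside 15.6%. By outcome, the octamer was in 1 of the 10 called members, 2 of the 8 tested members without a call and 11 of the 43 untested ones. CCAAT was in 8 of the 10, 7 of the 8 and 37 of the 43, and TATAAA in 8 of the 10, 2 of the 8 and 25 of the 43. These matches describe letters in the window and were not tested against the fold changes.

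Few genes that process histone mRNA or load and time histones passed the test, beside 16.1% of all tested genes called in either direction. The lists used here were written with earlier results of these data known. Of 18 tested genes of histone mRNA 3′ processing and transcription 0 were called in either direction (5 at an unadjusted p under 0.05), and their median log2 fold change was −0.006. Slbp, the stem-loop binding protein, averaged 24.7 ± 2.60 FPKM in mutant cells and 20.6 ± 1.72 FPKM in wildtype cells (log2 fold change 0.25, limma adjusted p = 0.138). Npat, the coactivator of histone gene transcription, averaged 3.71 ± 0.293 FPKM in mutant cells and 2.99 ± 0.144 FPKM in wildtype cells (0.24, limma adjusted p = 0.089). Casp8ap2, which takes part in cleavage at the stem-loop, had a log2 fold change of 0.25 (limma adjusted p = 0.0943), and Cpsf1, a subunit of the cleavage and polyadenylation factor, −0.25 (limma adjusted p = 0.0695). None of these 4 values passed the test.

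Replacement variants ranged widely in level. The 14 listed variants summed to 975 to 1014 FPKM in mutant cells and 951 to 990 FPKM in wildtype cells, and of 11 tested 0 were called (1 at an unadjusted p under 0.05). H3f3a and H3f3b, which both encode H3.3, had 338 ± 21.7 and 417 ± 17.6 FPKM in mutant cells, against 283 ± 14.2 and 469 ± 5.90 FPKM in wildtype cells. They stood highest among the tested variants, while H3f3c, at 2.43 ± 0.288 FPKM in mutant cells and 2.60 ± 0.427 FPKM in wildtype cells, lay below several clustered genes. The log2 fold changes of H3f3a and H3f3b were 0.25 and −0.17 (limma adjusted p = 0.0864 and 0.17). H2afy2, for macroH2A2, had a log2 fold change of 0.21 (limma adjusted p = 0.185). Of 22 tested histone chaperones 1 rose and 1 fell. Nasp, a chaperone of soluble H3 and H4 and of H1, rose to 15.99 ± 2.59 FPKM in mutant cells, against 10.4 ± 0.773 FPKM in wildtype cells (0.57, limma adjusted p = 0.0276). Cabin1, a subunit of the HIRA complex that deposits H3.3, fell to 9.07 ± 0.914 FPKM in mutant cells, against 12.2 ± 0.536 FPKM in wildtype cells (−0.39, limma adjusted p = 0.0237). Asf1a, which hands H3 and H4 to other chaperones, did not pass (0.24, limma adjusted p = 0.0694). The Nasp call was lost without any 1 library other than mutant 3, and the Cabin1 call without mutant 2, mutant 4 or any 1 wildtype library.

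Proliferation genes likewise gave few calls, beside 16.1% of all tested genes called in either direction. The difference between these lists and the histone genes was not tested. Of 35 tested genes of S phase and DNA replication 1 rose and 1 fell. Their median log2 fold change was 0.01, with sums of 243 to 308 FPKM in mutant cells and 231 to 258 FPKM in wildtype cells. Pold1, the catalytic subunit of DNA polymerase delta, fell to 5.002 ± 0.828 FPKM in mutant cells, against 7.04 ± 0.158 FPKM in wildtype cells (log2 fold change −0.43, limma adjusted p = 0.0362). Cdk2, the kinase that pairs with cyclin E at S phase entry, rose to 13.8 ± 1.199 FPKM in mutant cells, against 11.1 ± 0.221 FPKM in wildtype cells (0.29, limma adjusted p = 0.0497). E2f2, a transcription factor of the same stage, did not pass (−0.41, limma adjusted p = 0.0527). Of 15 tested genes of G2 and mitosis 1 rose and 0 fell, with a median of 0.30. The log2 fold change was below 0 in 1 of these 15, beside 43.2% of all tested genes. Stmn1, a microtubule regulator, was that gene, at 25.6 ± 4.32 FPKM in mutant cells and 16.01 ± 3.48 FPKM in wildtype cells (0.65, limma adjusted p = 0.0429). Foxm1 (0.29, limma adjusted p = 0.159) and Nusap1 (0.38, limma adjusted p = 0.213) did not pass. The Cdk2 call was lost without any 1 library other than mutant 4, the Pold1 call without any 1 library other than mutant 3, and the Stmn1 call without any 1 of mutant 2, mutant 3, mutant 4, wildtype 1 and wildtype 2.

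**Figure D5:**
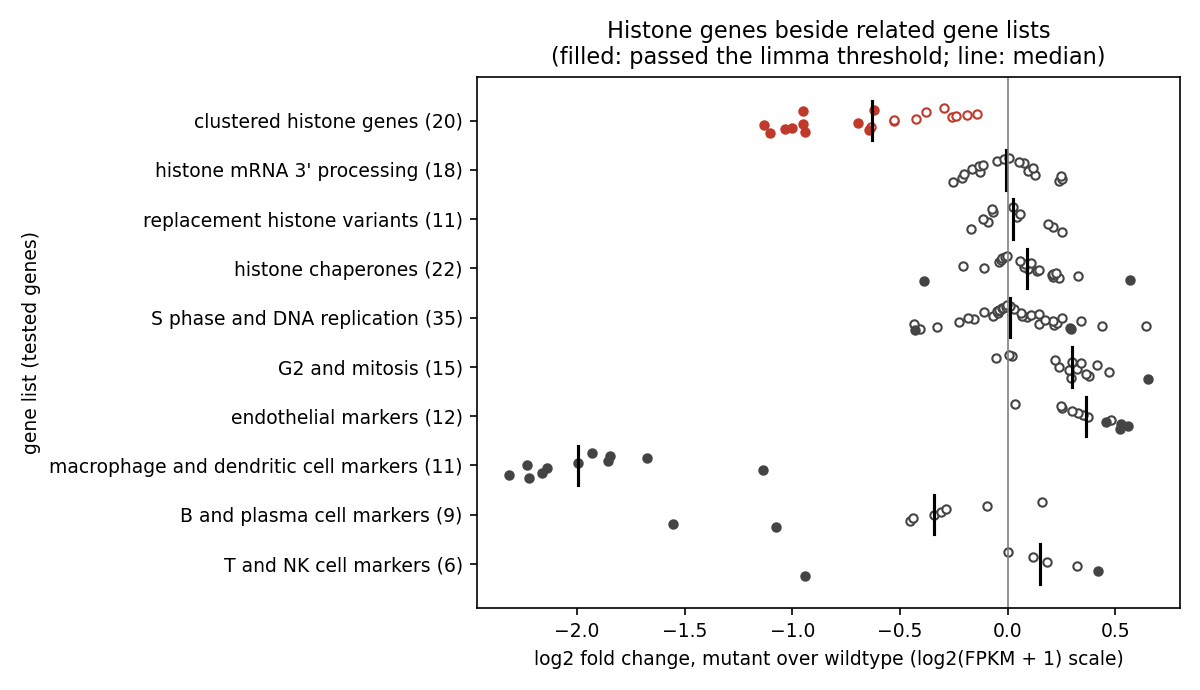
Log2 fold changes, mutant over wildtype, of the tested clustered histone genes (red) beside gene lists of related function and cell type markers (grey), 1 point a gene, filled where the limma threshold was passed, with a line at each median. The histone genes sit between −1.13 and −0.14, the 3′ processing, variant, chaperone and S phase medians lie within 0.09 of 0, and the macrophage and dendritic cell markers lie below −1.

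Other measures moved with the group, and their part in the lower histone values was not tested. Macrophage and dendritic cell markers fell in 11 of 11 tested cases, with sums of 613, 1365, 657 and 680 FPKM in mutant cells, against 2514, 3425 and 4066 FPKM in wildtype cells, and no marker was at 0 in all libraries. Of 9 tested B and plasma cell markers 2 fell, with sums of 45.7, 38.9, 69.5 and 55.5 FPKM in mutant cells, against 70.7, 92.0 and 68.98 FPKM in wildtype cells. Of 12 tested endothelial markers 4 rose and 0 fell, with sums of 2719, 2614, 2730 and 3114 FPKM in mutant cells, against 2630, 2197 and 1788 FPKM in wildtype cells. Without mutant 1, mutant 2, mutant 4 or wildtype 2 in turn, 0 endothelial markers were called higher, and without wildtype 3, 1 was. The B and plasma cell count came to 1 without mutant 3 or mutant 4 and to 0 without any 1 of the other 5 libraries. In bulk samples fewer cells of a type and less RNA per cell cannot be told apart. Of 6 tested T and NK cell markers 1 rose and 1 fell (sums of 19.3 to 31.2 FPKM in mutant cells and 22.5 to 26.9 FPKM in wildtype cells), and of 4 tested neutrophil markers 1 fell (19.1 to 126 FPKM in mutant cells and 40.0 to 101 FPKM in wildtype cells). Of 6 red cell and platelet markers 0 were called (4 at an unadjusted p under 0.05; sums of 62.6 to 173 FPKM in mutant cells and 52.1 to 126 FPKM in wildtype cells). Kidney tubule markers were present throughout: 0 of 9 proximal tubule markers were called (1 at an unadjusted p under 0.05; 1050 to 7773 FPKM in mutant cells and 3061 to 5140 FPKM in wildtype cells). Of 10 distal nephron and collecting duct markers 1 rose (7 were past an unadjusted p of 0.05; 1738 to 2724 FPKM in mutant cells and 1477 to 1710 FPKM in wildtype cells, mostly Umod). Within that list Slc12a3 rose (log2 fold change 0.84, a call lost when libraries were scaled on endothelial markers), while the water channel Aqp2 averaged 35.5 ± 18.04 FPKM in mutant cells and 79.5 ± 23.9 FPKM in wildtype cells (−1.22) without a call.

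RNAs that lack a poly(A) tail were looked at as a sign of how strictly tails were selected. The list held 20 such RNAs with a value, of which 6 were tested and 0 called (1 at an unadjusted p under 0.05). Their median log2 fold change was −0.40, and 9 were at 0 in all libraries. Their sums were 261, 347, 153 and 23.7 FPKM in mutant cells, against 275, 312 and 523 FPKM in wildtype cells, which overlap. Rny1, a small cytoplasmic RNA, was listed at 0 in mutant 1, mutant 2 and mutant 4 and had 57.6 FPKM in mutant 3, against a mean of 68.8 ± 14.9 FPKM in wildtype cells (limma adjusted p = 0.0618). The spliceosomal RNA Rnu6 (log2 fold change −3.93, limma adjusted p = 0.265) and Rmrp, the RNA of a ribonuclease (−0.52, limma adjusted p = 0.494), did not pass. Micro and small nucleolar RNA genes took 17.7, 9.19, 4.33 and 8.51% of the named FPKM in mutant libraries, against 3.83, 6.25 and 10.6% in wildtype libraries. With these small RNA genes taken out of the totals the same 10 histone genes were called lower, beside 7.12% of all genes tested in that fit.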

How the data were processed

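RNA was measured in 7 libraries, 4 mutant and 3 wildtype, grouped by sample title. Per the labels' protocols, RNA was selected with oligo(dT) beads and sequenced as stranded paired-end libraries. The deposited values are FPKM computed by the authors, per the file headers. Tools listed in the submitters' processing notes, without roles, were RSEM 1.2.28, Bowtie2 2.3.4.1 and Trimmomatic 0.39, with the mm10 build. The sources used here give neither the annotation nor any scaling between libraries.

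The table held 27014 entries. Left out were 429 without a gene name (18.3 to 29.3% of a library's FPKM), and 27 repeated symbols were summed, which left 26558 genes. Every value column was mapped. Depth is known in relative terms, from low values (33.9 to 37.8% of them on whole-read steps, too few to recover counts). Correlations of log2 values within groups were 0.947 to 0.978 over genes.

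Genes with mean FPKM 1 or more (13420) were tested with limma 3.58.1 (R 4.3.3) on log2(FPKM + 1), two-sided, with an intensity trend and Benjamini-Hochberg adjustment over all of them; fold changes on this scale understate those of low genes. The procedure was tested on simulated data. Sequences and coordinates (counted from 1) were read in Python 3.11.15 with Biopython 1.88 from GRCm38, GENCODE M21 and RefSeq, in which 69 and 68 members were matched.

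The members, the 14 gene lists (229 genes, 13 unmatched) and the rule for named genes (the 12 highest tested members, the 6 largest changes in each direction, the highest of each type, Vhl and the 3 smallest p per list) were chosen with earlier results of these data known. The other tested members, 5 untested ones, Slbp, Pecam1 and the genes between the Hist1 members were named after their values were seen. Alternatives covered pseudocount, filter, scaling, weights, the replicate block and each library left out. Members carry no p-values.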

Additional observations from a re-analysis of the deposited data

Results flagged for a closer look

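Samples far from the rest of their group were looked for in 58 groups of 4 mutant libraries, of which chance flags about 1 in 20. Hist1h1e had 1.99 FPKM in mutant 3 (the other mutant libraries lay between 0.818 and 1.01). Hist1h2bl had 3.98 FPKM in mutant 3 (others 1.39 to 1.77). Hist1h2bf had 2.52 FPKM in mutant 4 (others 1.14 to 1.34). Hist1h4m had 1.23 FPKM in mutant 1 (others 0.733 to 0.804). Nasp had 12.1 FPKM in mutant 3 (others 16.9 to 17.6). Rny1 had 57.6 FPKM in mutant 3 and was at 0 in the other mutant libraries. In mutant 2 the summed macrophage and dendritic cell markers reached 1364.5 FPKM (others 613 to 680), and the summed neutrophil markers 126 FPKM (others 19.1 to 32.4).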

How the results depend on the processing

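Of the 20 tested histone genes, the fold change of every one kept its sign in each alternative in which it was tested, except Hist1h2bk and Hist1h2bl, which reached 0.034 and 0.0038 without wildtype 1 (lowest −0.58 and −0.49, without wildtype 3). Members called lower numbered 10, against 4 at a mean FPKM of at least 5, where 6 were tested (beside 8.01% of all genes tested in that fit), 7 with no filter, where 69 were tested and 3 of the 10 were among them (2.87%), 15 with array weights (13.5%), and 2 to 10 with 1 library left out (3.88 to 8.09%). A smaller pseudocount of 0.1 gave medians of −0.97 for members, −1.40 for H1, −0.74 for H2B and −1.03 for H4, and a pseudocount of 0.5 gave −0.80 for H4. With no filter the medians were −0.30 for members, −0.45 for H1 and −0.13 for H2A, since low genes enter. The H4 median ran from −0.88 to −0.56 with 1 library left out. Over all genes, calls numbered 655 higher with no filter, 576 higher after rescaling to the same total, 2258 higher and 1812 lower with array weights, and 324 to 1205 higher and 521 to 1085 lower with 1 library left out. Lower calls were 45.6% of all calls, 58.3% after rescaling to the same total, 58.4% with median-of-ratios scaling and 61.8% with the replicate block. Same-numbered mutant and wildtype libraries gave correlations of −0.06, 0.03 and −0.28. These values are too few to show whether the numbers pair them. With the number as a block, 5 members were called lower (3.15% of all genes), and 261 genes higher and 423 lower. Scaling on endothelial markers, added after seeing the data, moved the median of all genes to −0.28 and gave 18 of 23 members lower (16.5% of all genes), 157 genes higher and 2215 lower. Under it the medians were −0.98 for members, −1.35 for H2A and −1.10 for H4, and the ratios of sums 0.477 for H1, 0.557 for H2B and 0.332 for H4. The fold changes of Npat (−0.051), Casp8ap2 (−0.054), H3f3a (−0.12), H2afy2 (−0.086), Asf1a (−0.076) and Cdk2 (−0.053) turned negative there, each above that shift. The calls of Nasp, Cabin1, Pold1, Cdk2 and Stmn1 were each lost under the replicate block and again when low genes were kept in, and that of Hfe under the block. Rescaling to the same total also ended those of Cabin1, Pold1, Cdk2 and Stmn1, rescaling without small RNA genes those of Pold1 and Cdk2, median-of-ratios scaling those of Nasp, Cdk2 and Stmn1, scaling on endothelial markers those of Nasp, Cdk2 and Stmn1, and quantile normalization and a fit without intensity trend that of Cdk2. Where no construction is named, the cause was not tested. Depth is known only in relative terms, so levels under an FPKM of 1, where 49 members lie, have no stated precision.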
